A study of Mus musculus with 13 samples.

Results

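Genes of NAD metabolism were followed in bone marrow-derived macrophages (BMDMs) that lacked ATP citrate lyase (Acly) or carried it, after a short and a long exposure to lipopolysaccharide (LPS). There were 8: *Cd38*, *Bst1*, *Nampt*, *Naprt*, *Nmnat1*, *Nadsyn1*, *Nadk* and *Parp1*, out of 24562 genes in the count table. They were listed by name, with earlier results of these data known. Each was read from the transcript of its symbol with the highest total count over all libraries. BMDMs came from female mice of the C57Bl/6J strain. Control mice were Acly fl/fl, with loxP sites around an exon of *Acly*. AclyM-KO mice carried the same floxed alleles and, in addition, Cre driven by the *Lyz2* (LysM) promoter, which deletes the exon in myeloid cells. All cultures were grown in medium conditioned by L929 fibroblasts and received LPS, a bacterial outer membrane component that activates macrophages, at 100 ng/mL. RNA was sequenced from 3 control and 3 AclyM-KO cultures after 3 h LPS, and from 4 control and 3 AclyM-KO cultures after 24 h LPS. Unstimulated cultures were not analysed here, so that every change over time below is between the 2 LPS exposures. The labels do not say whether replicates came from different mice, and p-values measure only the spread between these cultures.

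Total counts were 21274102 to 59577343 in 12 libraries and 34467 in control 24 h replicate 1. In that library 1 count stood for 22.4 CPM, the read count scaled to a common library size, and *Cd38*, *Naprt*, *Nmnat1* and *Nadsyn1* had 0 counts. All values below therefore come from the other 12 libraries, 3 per group, and results of the fit with all 13 are given where a call rests on it. Levels are CPM after TMM scaling, a correction of the library sizes for composition. A gene was called changed at an adjusted p-value (edgeR's quasi-likelihood test, Benjamini-Hochberg over all 19621 transcripts tested) under 0.05 and a log2 fold change beyond 0.75. *Acly* counts, taken over the whole transcript, were 104.6 to 106.8 CPM in controls and 37.7 to 46.2 CPM in AclyM-KO after 3 h, and 107.5 to 112.9 against 29.1 to 30.5 CPM after 24 h, and no AclyM-KO library overlapped the controls. The 8 macrophage markers *Adgre1*, *Csf1r*, *Cd68*, *Itgam*, *Mertk*, *Fcgr1*, *Lyz2* and *Cd14* were above 1 CPM in every group. Their summed level was 9984 to 10080 CPM in control and 6915 to 7852 CPM in AclyM-KO libraries after 3 h, and 6031 to 6333 against 4523 to 4627 CPM after 24 h, and the part of this difference in the results below was not tested. Without *Lyz2*, the gene that carries the Cre, it was 4716 to 4860 CPM in control and 4643 to 4908 CPM in AclyM-KO libraries after 3 h, and 3635 to 3812 against 3579 to 3767 CPM after 24 h.

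NAD accepts and donates electrons in metabolism and is also consumed as a substrate. Cells make it from nicotinamide by salvage through NAMPT, from nicotinic acid through NAPRT, or de novo from tryptophan. NMNAT enzymes join the mononucleotide to AMP, NADSYN1 amidates the nicotinic acid form, and NADK phosphorylates NAD to NADP, the source of the NADPH used in lipid synthesis and in the oxidative burst. The consumers are glycohydrolases such as CD38 and BST1, poly(ADP-ribose) polymerases such as PARP1, and sirtuins. In macrophages CD38 is known as an enzyme of the cell surface that increases with inflammatory activation.

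*Cd38* was the member most changed by genotype. It was lower in AclyM-KO than in control macrophages after 3 h LPS and rose in both genotypes between 3 and 24 h. *Bst1*, its paralogue, rose to a similar extent over time and was not called in either genotype comparison. *Nampt*, *Parp1* and *Nmnat1* overlapped between genotypes at both times, and *Nadk* was lower in AclyM-KO after 24 h LPS by less than the fold threshold. Of the 8 genes, 0 were called higher and 1 lower after 3 h, where 1.41% of all 11942 genes tested were called higher and 0.603% lower. After 24 h, 0 of the 8 were called in edgeR's test, where 0.896% of all genes were called higher and 0.486% lower, and DESeq2's Wald test also called 0. At an unadjusted p-value under 0.05 in edgeR's test and with no fold threshold, *Cd38*, *Bst1* and *Naprt* passed after 3 h, and *Cd38*, *Nadk* and *Bst1* after 24 h. The share of all genes that passed it is not given here, so these passes are not read as a trait of the list. The groups did not overlap for 3 of the 8 genes after 3 h and for 3 of 8 after 24 h, where 30.1% and 33.0% of all genes did not overlap. The median log2 fold change of the 8 was -0.09 after 3 h and -0.009 after 24 h, and that of all genes -0.005 and 0.005.

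**Figure D1:**
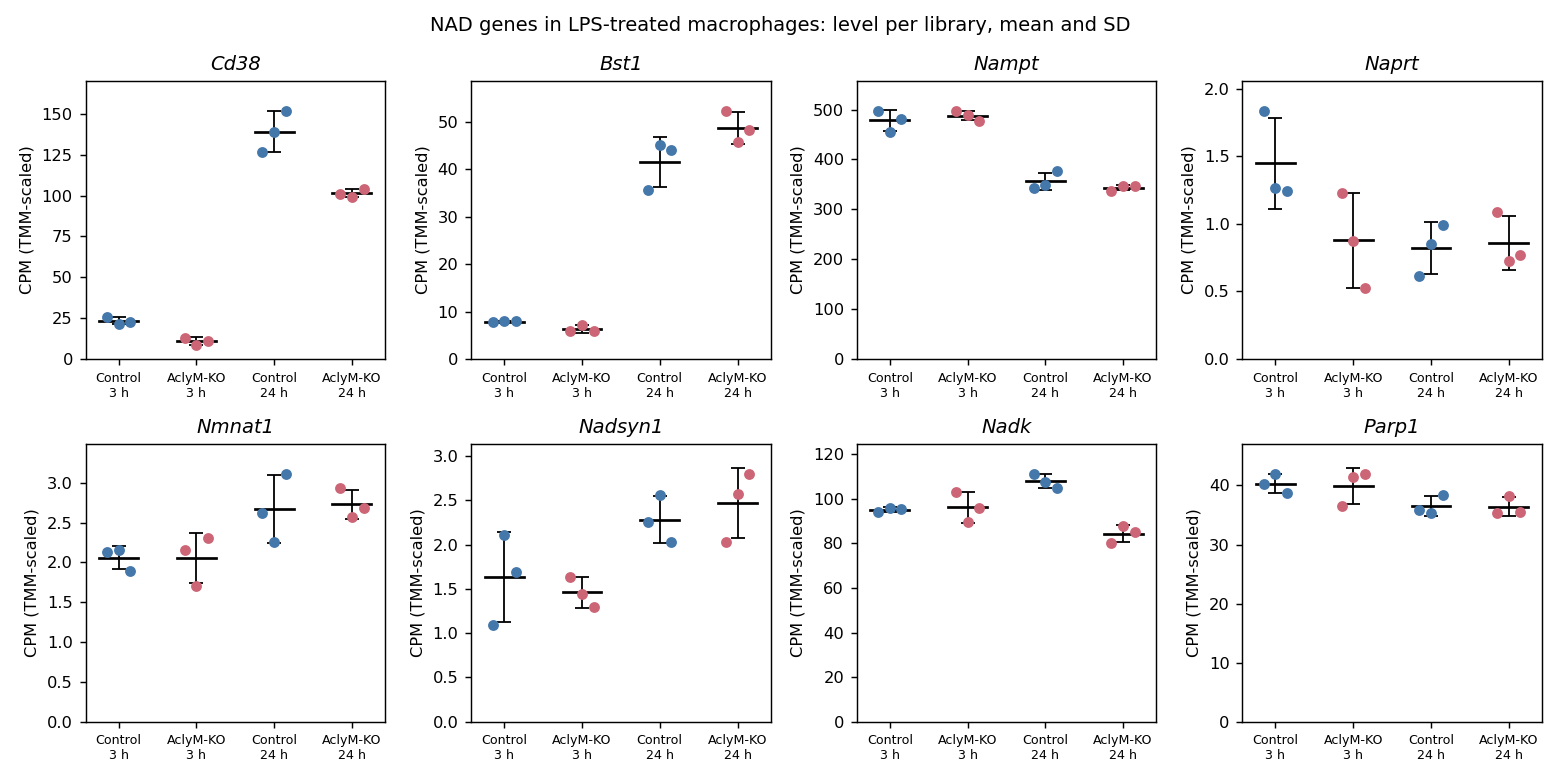
Level of each NAD gene (TMM-scaled CPM, linear axis from 0, own scale in each panel) in the 12 libraries, by group. Points are libraries, horizontal lines are means and bars are 1 SD (n = 3 per group). *Cd38* and *Bst1* are higher in every 24 h library than in any 3 h library, *Nampt* is lower in every 24 h library, and *Nadk* at 24 h is at 104.9 to 111.3 CPM in controls and at 80.2 to 87.7 CPM in AclyM-KO.

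Per kilobase of transcript, the scale on which genes can be compared, the order of mean levels after 3 h LPS in controls was *Nampt* (105.7 CPM per kb), *Nadk* (32.3), *Parp1* (10.4), *Cd38* (7.15), *Bst1* (2.76), *Nmnat1* (1.67), *Naprt* (0.763) and *Nadsyn1* (0.618). Neighbours in this order did not overlap between libraries except *Naprt* and *Nadsyn1*. In AclyM-KO the order after 3 h was the same down to *Nmnat1*, with *Nadsyn1* (0.553) and *Naprt* (0.462) overlapping at the end. After 24 h *Cd38* stood second in both genotypes, at 42.6 CPM per kb in controls and 31.0 in AclyM-KO, behind *Nampt* at 78.7 and 75.9. *Nadk* followed at 36.6 and 28.7, then *Bst1* at 14.5 and 17.04, and *Parp1* at 9.43 and 9.40. *Nmnat1*, *Nadsyn1* and *Naprt* remained the lowest, and no neighbours overlapped at 24 h. The nicotinamide route thus had its first enzyme among the highest transcripts of the list and the nicotinic acid route its first enzyme among the lowest, in every group.

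The glycohydrolases lie next to each other. In GRCm38 with GENCODE M21, *Bst1* spans chr5:43818885-43843986 and *Cd38* chr5:43868553-43912375, both on the plus strand with 24566 bases between them. *Cd38* overlaps the non-coding genes *Gm16014* on the same strand and *Gm16015* on the other, and *Bst1* overlaps *Fbxl5* on the other strand. The strand setting of the counting is not given in the sources used here, so reads of such partners cannot be told apart from those of the genes named.

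*Cd38* encodes the main NAD glycohydrolase of immune cells, which splits NAD to nicotinamide and ADP-ribose or cyclic ADP-ribose. After 3 h LPS its level was 25.7, 21.7 and 22.7 CPM in the control libraries and 13.2, 8.70 and 11.01 CPM in the AclyM-KO libraries. Every AclyM-KO library was below every control. The mean was 23.4 ± 2.08 CPM (SD, n = 3) in controls and 10.96 ± 2.23 CPM in AclyM-KO, 0.466 times the control level in the fit. The log2 fold change was -1.10 ± 0.12 (SE) with an adjusted p-value of 6.29e-06 in edgeR's test, and 1.80e-04 in the fit with all 13 libraries. Leaving out each library in turn gave -1.25 to -0.95 and kept the call. RNA was measured in bulk, where fewer cells with a transcript and less transcript per cell cannot be told apart.

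After 24 h LPS *Cd38* stood at 126.6, 139.0 and 151.9 CPM in controls and at 101.3, 99.4 and 103.9 CPM in AclyM-KO. The groups again did not overlap, with means of 139.2 ± 12.7 and 101.5 ± 2.29 CPM (SD, n = 3 each). In edgeR's test the log2 fold change was -0.46 ± 0.09 (SE) with an adjusted p-value of 0.00137. The difference passed the p-value threshold and not the fold threshold, and the gene was not called. With all 13 libraries the log2 fold change was -0.45 and the adjusted p-value 0.0139 in the same test.

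*Bst1* encodes CD157, a GPI-anchored relative of CD38 with weaker glycohydrolase activity, found on myeloid and stromal cells. After 3 h LPS it was at 7.70, 8.002 and 7.98 CPM in controls and at 5.84, 7.26 and 5.87 CPM in AclyM-KO. After 24 h it was at 35.5, 45.0 and 44.0 CPM in controls and at 52.3, 45.6 and 48.1 CPM in AclyM-KO. AclyM-KO libraries were thus below all controls after 3 h and above all of them after 24 h. The log2 fold changes were -0.31 ± 0.12 (SE, adjusted p-value 0.087) and 0.23 ± 0.08 (SE, adjusted p-value 0.0509) in edgeR's test, and neither was called.

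**Figure D2:**
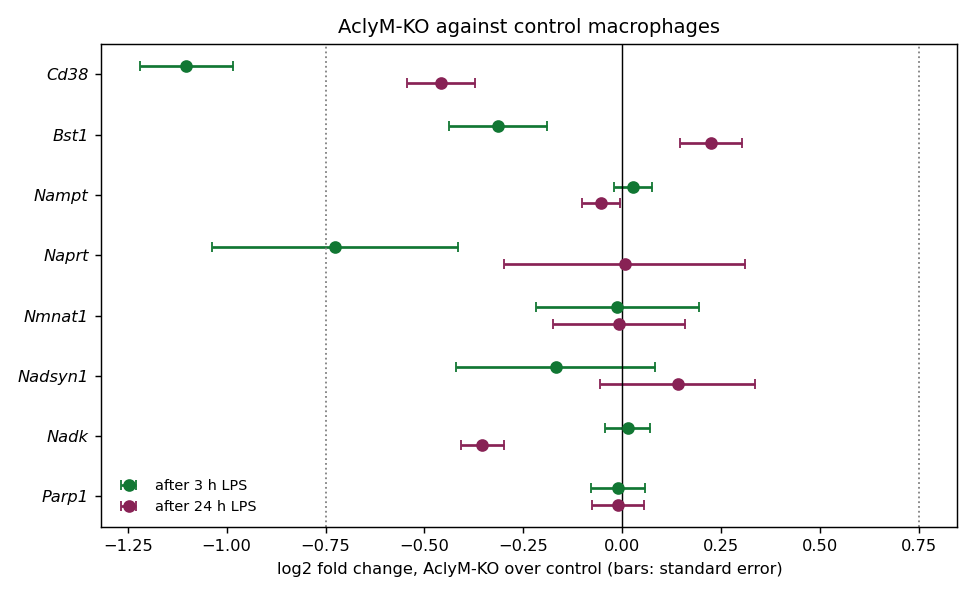
Log2 fold change of each NAD gene in AclyM-KO over control macrophages (horizontal axis) after 3 h (green) and 24 h LPS (purple), with bars of 1 standard error from edgeR's fit of 12 libraries and dotted lines at the fold threshold of 0.75. *Cd38* after 3 h, at -1.10, is the value that passed both thresholds, and *Naprt*, at -0.73 after 3 h, has the widest error after 3 h (0.31).

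Because *Cd38* and *Bst1* were counted in the same libraries, their ratio does not depend on the scaling of library sizes. It does depend on both genes. The log2 fold changes between genotypes were -1.10 for *Cd38* and -0.31 for *Bst1* after 3 h, and -0.46 and 0.23 after 24 h. After 3 h LPS there were 3.34, 2.71 and 2.85 *Cd38* counts per *Bst1* count in controls and 2.25, 1.20 and 1.88 in AclyM-KO. After 24 h there were 3.56, 3.09 and 3.45 in controls and 1.94, 2.18 and 2.16 in AclyM-KO. At each time every AclyM-KO library was below every control. The mean log2 ratio in AclyM-KO minus that in controls was -0.78 after 3 h (0.781 against 1.56, exact two-sided permutation test p = 0.1, n = 3 against 3) and -0.69 after 24 h (1.06 against 1.75, exact two-sided permutation test p = 0.1, n = 3 against 3). With 3 libraries a side, 0.1 is the smallest p-value this test can give.

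**Figure D3:**
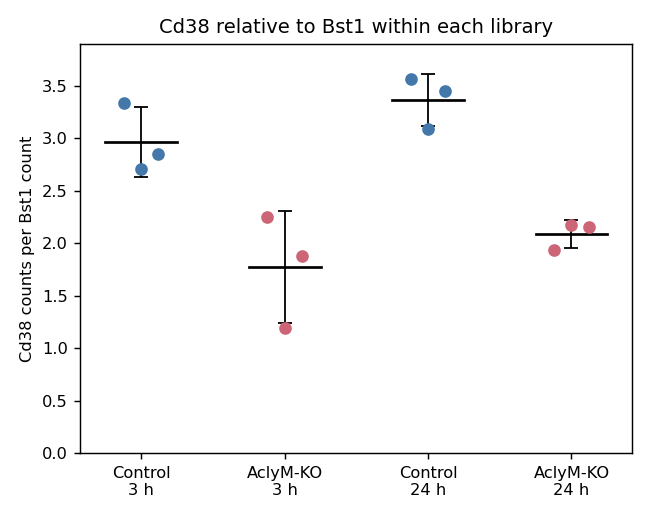
*Cd38* counts per *Bst1* count in each of the 12 libraries (linear axis from 0), by genotype and LPS time. Points are libraries, lines are means and bars are 1 SD (n = 3 per group). The AclyM-KO libraries lie at 1.20 to 2.25 after 3 h and at 1.94 to 2.18 after 24 h, below the controls at 2.71 to 3.34 and 3.09 to 3.56.

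*Nampt* encodes nicotinamide phosphoribosyltransferase, the rate-limiting enzyme of salvage from nicotinamide. It was at 497.5, 456.0 and 481.6 CPM in controls and at 496.5, 489.5 and 477.7 CPM in AclyM-KO after 3 h LPS. After 24 h it was at 343.6, 349.1 and 375.9 CPM in controls and at 337.4, 346.5 and 346.4 CPM in AclyM-KO. The genotypes overlapped at both times. The log2 fold changes between genotypes were 0.03 ± 0.05 (SE, adjusted p-value 0.754) and -0.05 ± 0.05 (SE, adjusted p-value 0.521) in edgeR's test. With 8189 to 24614 counts per library this gene has the smallest errors of the list. It lies at chr12:32819545-32853349 (GRCm38, GENCODE M21, plus strand) and overlaps the non-coding *Gdap10* on the same strand.

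*Naprt* encodes nicotinic acid phosphoribosyltransferase, the first enzyme of the Preiss-Handler route. It was at 1.84, 1.26 and 1.25 CPM in controls and at 1.23, 0.875 and 0.529 CPM in AclyM-KO after 3 h, and at 0.615, 0.853 and 0.993 against 1.09, 0.724 and 0.768 CPM after 24 h. These levels rest on 11 to 65 counts per library. The groups did not overlap after 3 h, where the highest AclyM-KO library lay just below the lowest control, and overlapped after 24 h. The log2 fold change after 3 h was -0.73 ± 0.31 (SE, adjusted p-value 0.12 in edgeR's test), and without AclyM-KO 3 h replicate 1 it was -1.02 with an adjusted p-value of 0.0379. After 24 h it was 0.007 ± 0.31 (SE, adjusted p-value 0.991). *Naprt* lies at chr15:75890956-75894481 (GRCm38, minus strand) and overlaps *Eef1d* on the same strand.

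*Nmnat1* encodes the nuclear adenylyltransferase that both routes share, and was at 1.71 to 2.31 CPM in the 3 h libraries and at 2.26 to 3.12 CPM in the 24 h libraries. The genotypes overlapped at both times, with log2 fold changes of -0.01 ± 0.21 and -0.007 ± 0.17 (SE, adjusted p-values 0.978 and 0.985 in edgeR's test). *Nadsyn1*, the glutamine-dependent NAD synthetase, was at 1.09 to 2.11 CPM in controls and at 1.30 to 1.64 CPM in AclyM-KO after 3 h, and at 2.03 to 2.56 against 2.03 to 2.80 CPM after 24 h. Its log2 fold changes between genotypes were -0.17 ± 0.25 and 0.14 ± 0.20 (SE, adjusted p-values 0.718 and 0.695 in edgeR's test). The standard errors of *Naprt*, *Nmnat1* and *Nadsyn1* between genotypes, 0.17 to 0.31, were larger than those of the other 5 genes.

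*Nadk* encodes the cytosolic NAD kinase. Its level was 94.1, 96.0 and 95.2 CPM in controls and 103.1, 89.3 and 95.8 CPM in AclyM-KO after 3 h LPS, with overlapping groups and a log2 fold change of 0.01 ± 0.06 (SE, adjusted p-value 0.909 in edgeR's test). After 24 h it was 111.3, 107.3 and 104.9 CPM in controls and 80.2, 87.7 and 85.2 CPM in AclyM-KO. Every AclyM-KO library was then below every control. The mean was 107.9 ± 3.23 CPM in controls and 84.4 ± 3.81 CPM in AclyM-KO (SD, n = 3 each), a log2 fold change of -0.35 ± 0.06 (SE) with an adjusted p-value of 2.84e-05 in edgeR's test. The difference was well beyond the spread between libraries, and at 0.783 times the control level it did not reach the fold threshold.

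*Parp1*, the nuclear polymerase that uses NAD to build poly(ADP-ribose) at DNA breaks, was at 38.7 to 42.0 CPM in controls and at 36.5 to 41.9 CPM in AclyM-KO after 3 h, and at 35.3 to 38.4 against 35.4 to 38.2 CPM after 24 h. The genotypes overlapped at both times. Its log2 fold changes were -0.01 ± 0.07 at each time (SE, adjusted p-values 0.941 and 0.944 in edgeR's test).

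Between 3 and 24 h LPS, *Cd38* rose 5.96-fold in controls and 9.32-fold in AclyM-KO macrophages, and *Bst1* rose 5.27-fold and 7.66-fold. In log2 terms these were 2.58 ± 0.10 and 3.22 ± 0.11 for *Cd38* (SE, adjusted p-values 7.02e-14 and 1.15e-14) and 2.40 ± 0.10 and 2.94 ± 0.10 for *Bst1* (SE, adjusted p-values 2.15e-19 and 3.32e-21), all in edgeR's test. They were the 2 of 8 genes called higher in controls, with 0 called lower, where 20.9% of all genes were called higher and 19.5% lower. In AclyM-KO 3 of 8 were called higher and 0 lower, where 21.9% of all genes were called higher and 20% lower. The third was *Nadsyn1*, at 0.76 ± 0.23 (SE, adjusted p-value 0.00348 in edgeR's test) in AclyM-KO and 0.45 ± 0.22 (SE, adjusted p-value 0.0647) in controls. Its value in AclyM-KO was just past the fold threshold and fell below it, at 0.73 with DESeq2, and at 0.73, 0.68, 0.73 and 0.65 without AclyM-KO 3 h replicate 2, 3 h replicate 3, 24 h replicate 2 and 24 h replicate 3. The median of the 8 log2 fold changes was 0.30 in controls and 0.20 in AclyM-KO, and that of all genes 0.04 and 0.05.

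The other members moved less over time. *Nampt* was lower at 24 h by a log2 value of -0.43 ± 0.05 in controls and -0.51 ± 0.05 in AclyM-KO (SE, adjusted p-values 3.07e-09 and 7.31e-11 in edgeR's test), with no overlap between times and below the fold threshold. *Nmnat1* was 0.41 ± 0.18 and 0.42 ± 0.19 higher (SE, adjusted p-values 0.0436 and 0.0477 in edgeR's test), also below it. *Naprt* lay at the threshold in controls, with -0.75 ± 0.29 (SE, adjusted p-value 0.0192), and at -0.02 ± 0.33 (SE, adjusted p-value 0.968) in AclyM-KO. It was called lower in controls with all 13 libraries (-0.75), with DESeq2 (-0.81) or its size factors (-0.78), and with 1 row per gene (-0.76). The same call was made without control 3 h replicates 2 or 3 (-0.83 and -0.84) or control 24 h replicate 4 (-0.98). It was also made without AclyM-KO 3 h replicates 2 or 3 or 24 h replicate 3 (-0.75 each). *Parp1* was at -0.14 ± 0.07 in each genotype (SE, adjusted p-values 0.0615 and 0.0663). With library totals in place of TMM factors the median of all genes moved to 0.32 in controls and 0.29 in AclyM-KO. *Parp1* moved to 0.14 and 0.11, so that its direction depends on the scaling. The same upward shift makes the fall of *Nampt* smaller, and the log2 rise of *Cd38* in controls was then 2.85.

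**Figure D4:**
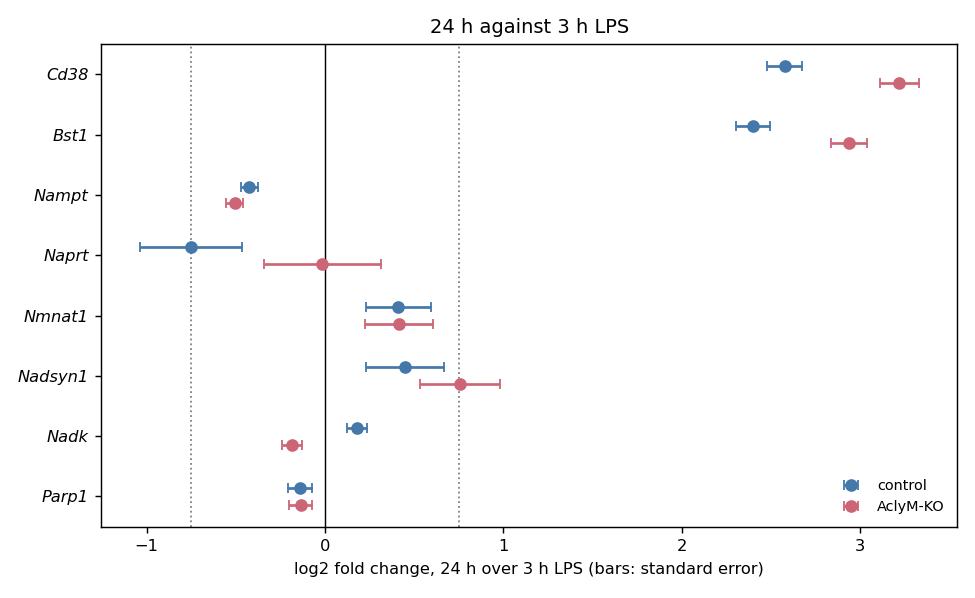
Log2 fold change of each NAD gene between 3 and 24 h LPS (horizontal axis, 24 h over 3 h) in control (blue) and AclyM-KO macrophages (red), with bars of 1 standard error from edgeR's fit of 12 libraries and dotted lines at the fold threshold of 0.75. *Cd38* and *Bst1* lie at 2.40 to 3.22 and stand apart from the other 6 genes, and *Nadk* lies at 0.18 in controls and at -0.19 in AclyM-KO, the latter turning to 0.06 with library totals as scaling.

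Whether the genotype difference depended on LPS time was tested as the interaction of genotype and time, which compares the change over time in AclyM-KO with that in controls and needed an adjusted p-value under 0.05 only. Of the 8 genes, 2 were called higher and 1 lower, where 4.88% of all genes were called higher and 4.71% lower. The increase of *Cd38* was larger in AclyM-KO by a log2 value of 0.64 ± 0.15 (SE, adjusted p-value 0.00957 in edgeR's test; 0.045 with all 13 libraries), since the gene started lower after 3 h and the gap to controls was smaller after 24 h. That of *Bst1* was larger by 0.54 ± 0.15 (SE, adjusted p-value 0.017 in edgeR's test). The *Bst1* call was lost without control 3 h replicate 2, control 3 h replicate 3 or AclyM-KO 3 h replicate 3, with adjusted p-values of 0.051, 0.0511 and 0.0659. *Nadk* moved in opposite directions, with 0.18 ± 0.06 over time in controls (SE, adjusted p-value 0.00417 in edgeR's test) and -0.19 ± 0.06 in AclyM-KO (adjusted p-value 0.00337), and the difference of -0.37 ± 0.08 (SE) had an adjusted p-value of 0.00234. With library totals as scaling the change of *Nadk* in AclyM-KO was 0.06. The other 5 genes were not called, with log2 values from -0.08 for *Nampt* to 0.73 ± 0.43 (SE, adjusted p-value 0.319 in edgeR's test) for *Naprt*. The median interaction was 0.16 over the 8 genes and 0.01 over all genes.

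The 5 genes whose levels followed *Cd38* most closely over the 12 libraries (Pearson correlation of log2(CPM + 1), among 10608 genes of at least 1 CPM on average) were *Marchf1* (0.998), *Npc2* (0.994), *Ppp1r21* (0.994), *Itpripl1* (0.993) and *Prkcb* (0.993). MARCHF1 is a membrane ubiquitin ligase that controls surface MHC class II, NPC2 a lysosomal cholesterol carrier and PRKCB a protein kinase C. *Marchf1* averaged 80.9 CPM in controls and 55.8 CPM in AclyM-KO after 3 h, and 200.9 and 167.3 CPM after 24 h. The correlations describe 12 points that share 4 groups, most of whose spread is between 3 and 24 h.

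Of 49 further genes of NAD metabolism, 37 passed the filter on low counts. The nicotinamide methyltransferase *Nnmt*, the glycohydrolase *Sarm1*, the extracellular nucleotidase *Nt5e*, and *Nmrk2*, *Nmnat2*, *Ido1*, *Tdo2*, *Haao*, *Acmsd*, *Qprt*, *Slc12a8* and *Slc5a8* did not, so that 5 of 9 genes of the de novo route were not tested. Between genotypes 0 of the 37 were called after 3 h, where 1.41% of all genes were called higher and 0.603% lower. After 24 h 0 were called higher and 1 lower, where the shares of all genes were 0.896% and 0.486%. Groups did not overlap for 15 of the 37 after 3 h and 14 after 24 h, where 30.1% and 33.0% of all genes did not overlap. Their median log2 fold change was 0.04 at each time.

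The gene called was *Ido2*, a relative of the tryptophan dioxygenase IDO1. It had 31, 27 and 82 counts in the 24 h control libraries and 18, 22 and 9 in AclyM-KO, a mean of 1.23 ± 0.06 CPM against 0.635 ± 0.27 CPM (SD, n = 3 each). Its log2 fold change was -0.96 ± 0.28 (SE, adjusted p-value 0.0195 in edgeR's test). The call was lost without control 24 h replicate 4, AclyM-KO 24 h replicate 1 or AclyM-KO 24 h replicate 3 (adjusted p-values 0.0797, 0.0513 and 0.156).

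In the interaction 3 of the 37 were called higher and 1 lower, where 4.88% of all genes were called higher and 4.71% lower. *Slc25a51*, the carrier that brings NAD into mitochondria, had 58.2 ± 1.65 CPM in controls and 40.4 ± 3.29 CPM in AclyM-KO after 3 h (SD, n = 3 each), and 47.6 ± 0.90 and 46.1 ± 2.504 CPM after 24 h. Its interaction was 0.48 ± 0.09 (SE, adjusted p-value 5.70e-04 in edgeR's test). Its difference after 3 h, -0.53 ± 0.07 (SE, adjusted p-value 7.01e-07 in edgeR's test), had no overlap between groups and was below the fold threshold. *Parp4* and *Tiparp*, ADP-ribosyltransferases, were lower at 24 h than at 3 h in every library and less so in AclyM-KO, with interactions of 0.40 ± 0.10 and 0.29 ± 0.08 (SE, adjusted p-values 0.0116 and 0.0146 in edgeR's test). The *Parp4* call was lost without control 3 h replicate 3 (adjusted p-value 0.0501), and that of *Tiparp* without AclyM-KO 3 h replicate 3 or AclyM-KO 24 h replicate 3 (0.061 and 0.0612). *Ido2* was called lower, at -1.22 ± 0.36 (SE, adjusted p-value 0.0299 in edgeR's test), and lost the call without any of 7 libraries, with adjusted p-values of 0.0523 to 0.124.

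Over time 12 of the 37 genes were called higher and 10 lower in controls, and 13 higher and 9 lower in AclyM-KO, with medians of 0.35 and 0.36. Of all genes 20.9% were called higher and 19.5% lower in controls, and 21.9% and 20% in AclyM-KO. In the de novo route, *Kynu*, kynureninase, rose 5.63-fold in controls and 6.07-fold in AclyM-KO, while *Kmo*, kynurenine 3-monooxygenase, fell by 2.77 in controls on the log2 scale and was at -3.10 in AclyM-KO. *Kmo* had 6, 15 and 23 counts in the 24 h control libraries and 8, 7 and 15 in the 24 h AclyM-KO libraries. *Ido2* also fell in both genotypes, and *Afmid* was not called. Among the 14 ADP-ribosyltransferases other than *Parp1*, 2 rose and 4 fell in controls, and 4 rose and 3 fell in AclyM-KO. *Parp2* and *Parp6* were called higher in AclyM-KO only, and their interactions were not called (adjusted p-values 0.411 and 0.0708 in edgeR's test). *Parp16*, an enzyme of the endoplasmic reticulum membrane, rose 6.15-fold in controls and 6.23-fold in AclyM-KO. It rose from 7, 5 and 6 counts in the 3 h control libraries and from 8, 12 and 4 in AclyM-KO. *Tiparp*, *Parp9* and *Parp14* fell in both genotypes. Of the 7 sirtuins, *Sirt4*, with 6 to 14 counts per 3 h library, and *Sirt6* rose in both genotypes. *Sirt5*, with 7 to 16 counts per 3 h library, was called higher in controls (1.27). In AclyM-KO it was at 0.67 (adjusted p-value 0.0788 in edgeR's test) and not called. Its interaction, -0.60, was not called either (adjusted p-value 0.505). *Sirt1*, a nuclear deacylase, fell by 1.98 on the log2 scale in controls and by 1.90 in AclyM-KO. *Macrod1*, which removes ADP-ribose from proteins, fell by 2.98 in controls and 2.74 in AclyM-KO. Its 24 h libraries held 19, 16 and 34 counts in controls and 9, 12 and 15 in AclyM-KO. The kinase *Nadk2*, the adenylyltransferase *Nmnat3* and the riboside kinase *Nmrk1* rose in both genotypes, and the transhydrogenase *Nnt* and the ectoenzyme *Enpp1* fell in both. *Nudt12*, an NADH hydrolase, rose 6.95-fold in AclyM-KO, from 1, 3 and 5 counts in the 3 h libraries, and 2.42-fold in controls, and the difference was not called (interaction 1.52, adjusted p-value 0.124 in edgeR's test). *Aox1*, an oxidase that clears methylated nicotinamide, had 0, 1 and 0 counts in the 3 h controls and 4, 3 and 2 in the 3 h AclyM-KO libraries, against 65 to 184 and 58 to 76 counts after 24 h, and no fold is given for it.

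**Figure D5:**
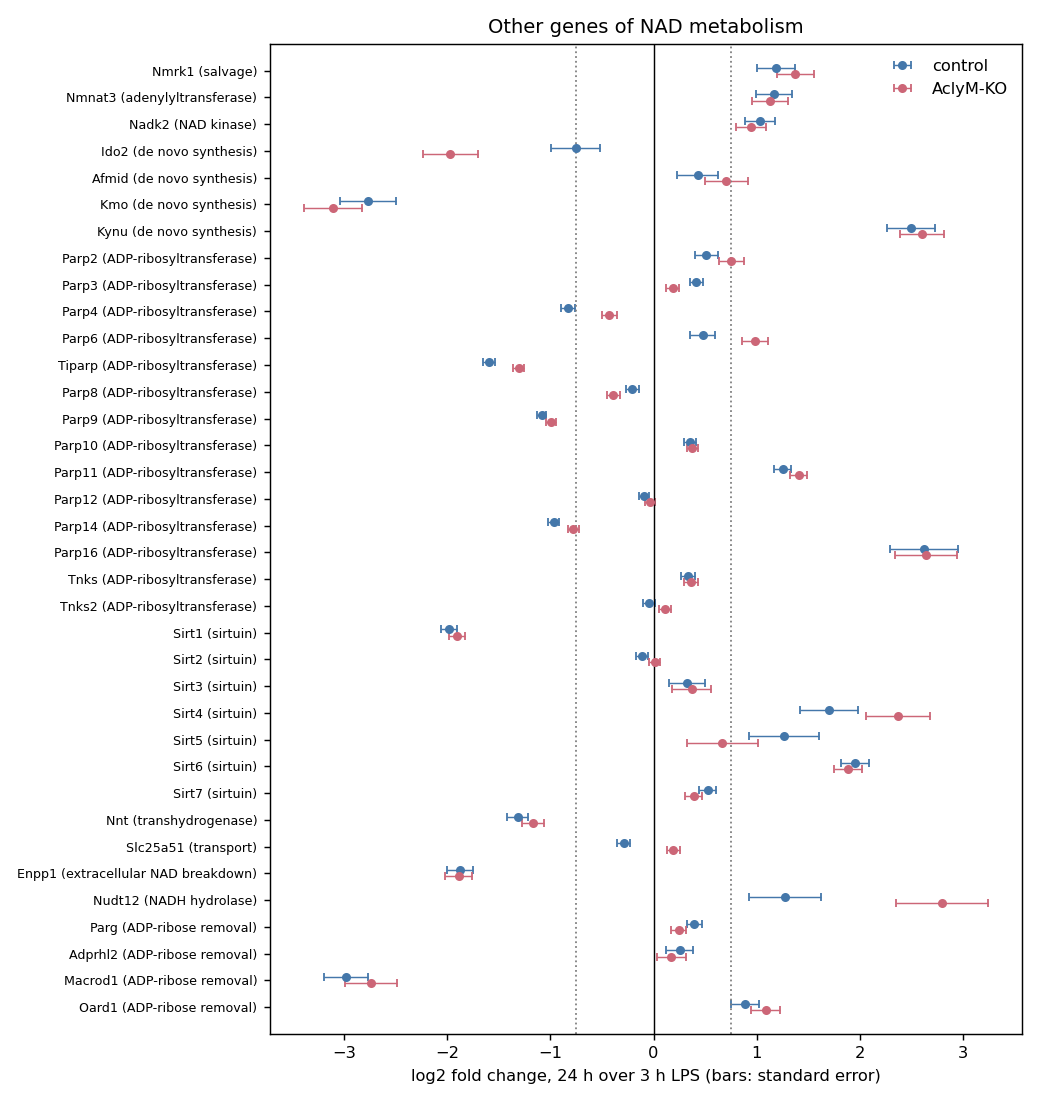
Log2 fold change between 3 and 24 h LPS (horizontal axis, 24 h over 3 h) of 36 further genes of NAD metabolism in control (blue) and AclyM-KO macrophages (red), with bars of 1 standard error from edgeR's fit of 12 libraries, grouped by role, and dotted lines at the fold threshold of 0.75. *Aox1* was left out because its 3 h control libraries hold 1 count in all. *Kynu* and *Parp16* lie at 2.49 to 2.64 in both genotypes and *Kmo* and *Macrod1* at -2.74 to -3.10. *Parp16* rests on 4 to 12 counts per library at 3 h, and *Kmo* and *Macrod1* on 6 to 34 at 24 h.

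CD38 is also carried by lymphocytes, and markers of other cells were therefore read beside it. The 7 B cell markers summed to at most 1.09 CPM in any library and 0 of 7 were above 1 CPM in any group. Of the 8 T and NK cell markers, *Cd3e*, *Cd3d* and *Cd3g* were at 0.0384 CPM or less in every group mean. *Cd4* and *Lck* made up nearly all of this list's sum, which was 32.5 to 34.4 CPM in control and 23.5 to 24.0 CPM in AclyM-KO libraries after 3 h, and 9.46 to 10.5 against 5.87 to 6.68 CPM after 24 h. The sum was thus lower in AclyM-KO at both times, as *Cd38* was, and lower at 24 h, where *Cd38* was higher. After 24 h it was mostly *Cd4*, with means of 9.45 CPM in control and 5.44 CPM in AclyM-KO. *Lck* went the other way at that time, at 0.426 and 0.699 CPM. The part of this sum in the result was not tested. The 9 neutrophil markers summed to 8.24 to 8.93 CPM in control and 7.74 to 10.7 CPM in AclyM-KO libraries after 3 h, and to 2.58 to 3.67 against 2.61 to 3.64 CPM after 24 h, overlapping at both times. The sum of the 7 dendritic cell markers was higher in AclyM-KO without overlap. It was 4.22 to 4.77 CPM in control and 5.17 to 6.04 CPM in AclyM-KO libraries after 3 h, and 1.68 to 2.39 against 2.78 to 2.90 CPM after 24 h. *Kmo*, also a gene of the NAD list above, was the largest part after 3 h (means 2.69 and 3.35 CPM), and *Ccr7* after 24 h (1.09 and 1.78 CPM). Single markers went the other way, *Clec9a* and *Ccr7* after 3 h and *Kmo* and *Siglech* after 24 h. The 7 stromal markers summed to 0.889 to 1.496 against 1.84 to 2.01 CPM after 3 h, without overlap, and to 1.19 to 1.65 against 1.01 to 1.95 CPM after 24 h. The part of these sums in the results was not tested.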

How the data were processed

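The authors made strand-specific mRNA libraries from total RNA, mapped the reads to mm10 (STAR 2.5.2b), filtered with SAMtools, and used HOMER to sum the tags of each RefSeq transcript. The submitters' processing notes also name CASAVA 1.8.2. The deposited values are whole-number counts, not normalized, for 35745 transcripts, of which 35628 were matched to a symbol through a RefSeq gene table and GENCODE M21. The 117 others took 1.13% of the counts and stayed in the library sizes.

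Samples were grouped by genotype, LPS time and replicate as the labels give them. Counts were tested in R 4.3.3 with edgeR 4.0.16 (TMM, filterByExpr on the 4 groups, robust quasi-likelihood), in 1 fit of 12 libraries with 5 comparisons. Each standard error of an edgeR log2 fold change was computed as its absolute value over the square root of the quasi-likelihood F statistic. Control 24 h replicate 1 was left out for its depth. P-values were adjusted over the 19621 transcripts that passed the filter, which belong to 11942 genes. The members, the further NAD genes, the marker lists and the tests were chosen with earlier results of these data known. Every member was named in every comparison. Further NAD genes were named where called between genotypes or in the interaction, and up to 6 by size over time, and those of the role counts were added after their values were seen. Alternatives were all 13 libraries, DESeq2 1.42.0 and its size factors, library totals, no filter, fits of each comparison alone, 1 row per gene, the row with the lowest total, a replicate block, other fold thresholds and leaving out each library. The edgeR step was tested on simulated data. No sequence is printed. Some marker genes are not reported here.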

Additional observations from a re-analysis of the deposited data

Results flagged for a closer look

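The genotype difference of 3 members changed between 3 and 24 h LPS by the interaction test of edgeR. The log2 interaction was 0.64 for *Cd38* (adjusted p-value 0.00957), where all 3 AclyM-KO libraries were below all controls at both times. It was 0.54 for *Bst1* (adjusted p-value 0.017), where they were below all controls after 3 h and above them after 24 h, and where leaving out any of 3 libraries ended the call. It was -0.37 for *Nadk* (adjusted p-value 0.00234), where they were below all controls after 24 h LPS only of the 2 times.

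*Cd38* was at 0 counts in control 24 h replicate 1, the library of 34467 counts, and at 3088 to 9949 counts in the other 3 controls of that time. On the scaling of all 13 libraries its gap to the next control was 0.833 of the range of the 4 libraries, above Dixon's critical value for 4 samples. About 1 such test in 20 passes by chance, and 8 genes were tested in this group. A single count stood for 22.4 CPM in that library. A count of 0 allows up to 3 counts there, or 67.2 CPM, with counting error only covered. With the library at 67.2 CPM the gap would be 0.71 of the range, below the critical value, so that the passing gap rests on reading 0 counts as a level of 0.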

How the results depend on the processing

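The fold threshold set most of the counts. With none, 1844 genes were called after 3 h and 1659 after 24 h between genotypes, and 8949 in controls and 9037 in AclyM-KO over time, with 2 members called after 24 h (*Cd38* and *Nadk*) and 6 in each genotype over time. Beyond a log2 value of 1, 145 and 71 genes were called between genotypes. Leaving out 1 library gave 1 to 2 members called after 3 h, the second being *Naprt* without AclyM-KO 3 h replicate 1. Under the other alternatives the counts of members and of all genes stayed within 1.5 times. *Nadsyn1* over time in AclyM-KO lost its call at 0.727 with DESeq2's size factors, 0.748 in a fit of AclyM-KO alone and 0.74 with 1 row per gene. Reversals of sign were in members that were not called. With library totals *Naprt* was at -0.01 after 24 h and 0.23 over time in AclyM-KO, *Nadk* at 0.059 over time in AclyM-KO, *Parp1* at 0.14 and 0.11 over time, and the interactions of *Nmnat1* at -0.025 and *Parp1* at -0.03. Without the filter *Naprt* was at -0.025 after 24 h, and the interactions of *Nmnat1* at -0.028 and *Parp1* at -0.026. With 1 row per gene these were -0.00036, -0.0052 and -0.0075. In a fit of the 24 h libraries alone *Naprt* was at -0.0056. With DESeq2 *Nmnat1* was at 0.007 after 24 h and the interaction of *Parp1* at -0.004, and at -0.0036 with its size factors. Leaving out 1 library gave, after 3 h, -0.0014 to 0.062 for *Nampt*, -0.106 to 0.118 for *Nmnat1*, -0.381 to 0.068 for *Nadsyn1*, -0.037 to 0.068 for *Nadk* and -0.047 to 0.052 for *Parp1*. After 24 h it gave -0.201 to 0.234 for *Naprt*, -0.099 to 0.159 for *Nmnat1* and -0.047 to 0.031 for *Parp1*, over time in AclyM-KO -0.273 to 0.279 for *Naprt*, and for the interaction -0.139 to 0.171 for *Nmnat1* and -0.073 to 0.043 for *Parp1*. The cause was not tested.

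Whether same-numbered libraries of the genotypes were paired is not given by the labels. Their deviations correlated at 0.043, 0.043 and -0.021 at 3 h and at 0.101 and -0.012 at 24 h, and not every library correlated best with its own number. With 3 libraries per group these correlations cannot exclude a pairing. A replicate block left the counts of members called as they were and gave 845 in place of 1145 genes called in the interaction. With it *Naprt* was at -0.0023, *Nmnat1* at 0.119 and *Parp1* at 0.06 after 24 h, and *Ido2* (adjusted p-values 0.0749 after 24 h and 0.0683 in the interaction) and *Parp4* (0.0611 in the interaction) lost their calls in edgeR's test. Depth limits *Naprt*, *Nmnat1* and *Nadsyn1*, with 11 to 204 counts per library.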
